A study of Mus musculus with 6 samples.

Results

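The inhibitors of cyclin-dependent kinases (CDKs) were examined in adult mouse subventricular zone cells with targeted alleles of the activator E2F genes E2f1 and E2f3. The members were taken by gene symbol from the deposited table and comprise 7 of its 55487 rows: the INK4 genes Cdkn2a, Cdkn2b, Cdkn2c and Cdkn2d and the Cip/Kip genes Cdkn1a, Cdkn1b and Cdkn1c. Of these 6 reached the mean of 10 normalized reads that was required for the test, and Cdkn2a did not. Each library came from several mice pooled before RNA isolation, with 3 libraries per genotype. The heterozygous group was E2F1(+/-);E2F3(F/+) and the knockout group E2F1(-/-);E2F3(F/F), on a mixed C57BL/6;Sv/129;FVB/N background. Both groups carried NestinCreERT2, a tamoxifen-inducible Cre driven by the Nestin promoter of neural stem cells, and an EYFP reporter at R26, and both received tamoxifen (200 mg/kg per day for 5 days) from an age of 6 to 10 weeks. Reporter-positive cells, which include the descendants of the recombined stem cells, were sorted 10 days after the last dose. No group with all E2f1 and E2f3 alleles intact was analysed here, and the E2f1 and E2f3 alleles differ together between the groups, so their effects cannot be told apart.

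As background, a cell commits to division when D-type cyclins with CDK4 or CDK6, and then cyclin E with CDK2, phosphorylate the retinoblastoma family of pocket proteins, which releases activator E2F factors. INK4 proteins bind CDK4 and CDK6 and keep them from D-type cyclins, whereas Cip/Kip proteins bind assembled cyclin-CDK complexes and chiefly block those with CDK2. In the adult subventricular zone, p57 (Cdkn1c) is known to hold stem cells in quiescence, p27 (Cdkn1b) to limit division of transit-amplifying progenitors, and p21 (Cdkn1a) to help maintain the stem cell pool. Cdkn2c (p18Ink4c) and Cdkn2d (p19Ink4d) are the INK4 genes expressed during neural development, and Cdkn2a, which encodes p16Ink4a and p19Arf from different first exons, is known for its rise with age.

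The libraries held 19798675 to 25982361 reads on genes. E2f1 was lower in knockout libraries (458 ± 73.6 against 1190 ± 182 normalized reads, SD, n = 3 each; limma adjusted p = 0.00559), while whole-gene reads of E2f3 did not show the deletion (log2 difference 0.09, adjusted p = 0.845). The sum of 16 neuroblast markers was 80938 to 133330 normalized reads in heterozygous and 14329 to 18650 in knockout libraries, and 16 of 16 were lower in the knockout, as were 12 of 12 mitosis markers. Libraries also differed in other cell types. Among 15 genes that mark quiescent stem cells and astrocytes, 3 were higher in the knockout (10 with DESeq2, 0 without heterozygous B, 1 without heterozygous A or knockout B and 8 without knockout A), and their sum overlapped between groups (531766 to 742238 against 728364 to 1098786). The sum of 10 oligodendrocyte markers was 49096 to 70781 in heterozygous and 76811 to 95352 in knockout libraries. With all libraries and the main filter 0 of 10 were called by limma or edgeR and 2 by DESeq2. By limma 1 was higher when the mean had to be at least 50, and 2 without heterozygous C. The sum of 12 ependymal markers was 13442 to 15821 normalized reads in heterozygous libraries and 79774, 49530 and 19822 in knockout A, B and C, and 9 of the 12 were higher, a count that was 0 to 2 when any library other than knockout C was left out. The sum of 9 endothelial markers was 5251 to 5759 in heterozygous libraries and 31490, 11786 and 3801 in the same knockout libraries, with 0 of 9 called by limma or edgeR, 3 by DESeq2 and, without knockout C, 9 of 9 higher by limma. The sum of 5 blood cell markers was 1384 to 4066 in heterozygous and 20464, 5087 and 656 in the same knockout libraries. Heterozygous A stood apart in 4 choroid plexus markers, with a sum of 46810 against 430 to 3008 in the other 5 libraries. No gene of these marker lists was at 0 in all 6 libraries. In bulk RNA from sorted cells, fewer cells of a type and less RNA per cell cannot be told apart, and this holds for every value below.

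The windows upstream of the annotated starts of the members that fell are shown first, beside that of Cdkn2a, since the genotype targets E2f1 and E2f3. RefSeq promoter windows on GRCm38.p6, which run from 250 bases before to 50 bases after a start, were found for 6 of the 7 members with 9 starts in all. Printed here, on the gene's strand, are only the 250 bases before the start. Cdkn2c has its window at chr4:109666757-109667006 (minus strand), Cdkn2d at chr9:21291210-21291459 (minus strand) and the upstream start of Cdkn2a at chr4:89294620-89294869 (minus strand). Capitals mark GGGCGG or its reverse complement CCGCCC, the core of the GC box, and in Cdkn2a also 1 E2F word, TTTCCCGC, which begins 99 bases before the start.
Cdkn2c: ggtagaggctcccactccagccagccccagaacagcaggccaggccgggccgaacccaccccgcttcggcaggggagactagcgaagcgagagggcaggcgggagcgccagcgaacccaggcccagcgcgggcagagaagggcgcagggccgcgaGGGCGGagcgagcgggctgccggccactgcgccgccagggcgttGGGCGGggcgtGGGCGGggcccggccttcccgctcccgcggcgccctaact
Cdkn2d: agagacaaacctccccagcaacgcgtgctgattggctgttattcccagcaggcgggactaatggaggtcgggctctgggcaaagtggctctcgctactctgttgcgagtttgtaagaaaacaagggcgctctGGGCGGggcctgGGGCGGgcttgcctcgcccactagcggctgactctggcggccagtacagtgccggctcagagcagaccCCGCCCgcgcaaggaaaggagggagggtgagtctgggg
Cdkn2a: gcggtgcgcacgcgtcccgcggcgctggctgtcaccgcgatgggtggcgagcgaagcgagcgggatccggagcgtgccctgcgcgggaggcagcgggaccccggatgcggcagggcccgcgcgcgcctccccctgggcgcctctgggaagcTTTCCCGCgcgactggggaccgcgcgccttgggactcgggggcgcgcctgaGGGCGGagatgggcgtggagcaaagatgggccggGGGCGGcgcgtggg

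Among TTTGGCGC, TTTGCCGC, TTTCGCGC and TTTCCCGC, the E2F words searched on both strands of the whole windows, a match was present in 1 of the 9 member windows and in 2.26% of all 32851 windows. That match lies at Cdkn2a, which had at most 3 reads in any library. GGGCGG was present in 7 of the 9 windows and in 35.7% of all windows, including the Cdkn2c window printed above, that of Cdkn2d and that of Cdkn1b. TTTGAA, a word of the cell cycle homology region, was found in 1 of 9 windows (Cdkn2b) against 17.9% of all, and CACGTG, the E-box, in 1 of 9 (the second start of Cdkn2c) against 7.15%. GGGCGG and the E2F words can overlap where both lie in one run of G and C. These are matches of letters in a short window, and GENCODE places the start of Cdkn2c upstream of the RefSeq start used here.

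Of the 6 inhibitor genes tested 2 were lower in the knockout, Cdkn2c and Cdkn2d, both of the INK4 family, and 0 were higher (limma, Benjamini-Hochberg over 18227 genes, adjusted p under 0.05). Among all tested genes 15.8% were called, 8.59% lower and 7.23% higher. With an unadjusted p under 0.05, 3 inhibitor genes were lower and 0 higher, against 16.5% and 16.9% of all tested genes. Groups did not overlap for Cdkn2c, Cdkn2d and Cdkn1b, against 38.7% of all tested genes. The median log2 change was -0.75 over the 6 genes and 0.05 over all tested genes. With 6 genes these shares describe the family and set it apart from no other.

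**Figure D1:**
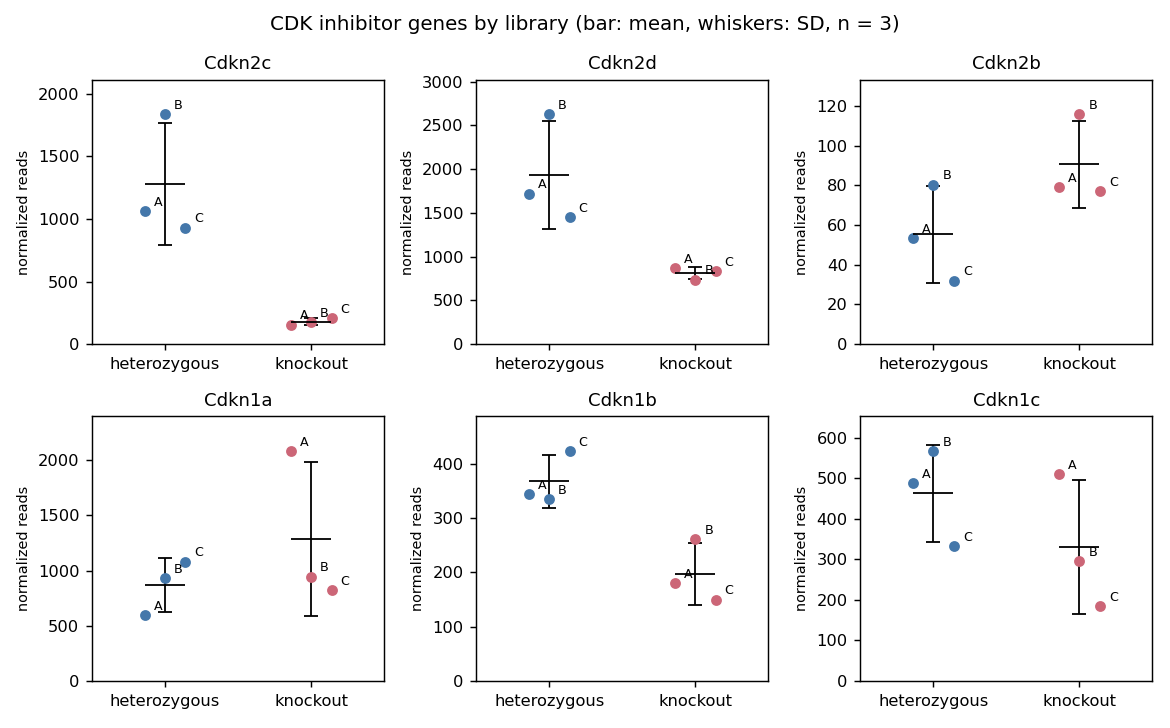
Normalized reads (y axis, linear from 0) of the 6 tested inhibitor genes in each library, labelled A to C, for heterozygous and knockout groups, with the mean and SD of 3 libraries. Knockout libraries lie below every heterozygous library for Cdkn2c, Cdkn2d and Cdkn1b, whereas the groups overlap for Cdkn2b, Cdkn1a and Cdkn1c.

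Cdkn2c (ENSMUSG00000028551, GRCm38 chromosome 4, 109660876 to 109667189, minus strand) had the largest change of the family. Its level was 1064, 1836 and 932 normalized reads in heterozygous A, B and C and 155, 175 and 208 in knockout A, B and C. Every knockout library lay far below every heterozygous one, and heterozygous B stood highest. The log2 change was -2.77 ± 0.29 (SE; 95% interval -3.43 to -2.11), a 6.82-fold decrease, with an adjusted p = 0.0011. In the authors' deposited table its log2 change is -2.83.

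Cdkn2d (ENSMUSG00000096472, chromosome 9, 21288410 to 21291407, minus strand) had 1717, 2627 and 1452 normalized reads in heterozygous A, B and C. The knockout libraries held 867, 738 and 833, below all heterozygous values and close to one another. The fall was 2.31-fold (log2 change -1.21 ± 0.24, 95% interval -1.75 to -0.67, adjusted p = 0.0137). Its call was lost without knockout B (-1.14, adjusted p = 0.0675), while that of Cdkn2c was kept whichever library was left out.

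Cdkn2b (ENSMUSG00000073802, chromosome 4, 89306299 to 89311039, minus strand), which encodes p15Ink4b, an inhibitor known to be induced by TGF-beta, was scarce. Heterozygous libraries held 53.5, 80.3 and 32.0 normalized reads and knockout libraries 79.0, 116 and 76.9. The groups overlapped, since heterozygous B exceeded knockout A and C. The log2 difference was 0.77 with a 95% interval of -0.26 to 1.80 (adjusted p = 0.264), an interval that contains no change and a doubling on this scale. Cdkn2a (ENSMUSG00000044303, chromosome 4, 89274471 to 89294653, minus strand), its neighbour, had 0, 1 and 1 reads in heterozygous A, B and C and 0, 0 and 3 in knockout A, B and C. No difference in Cdkn2a was detectable at this depth, and gene-level reads do not separate p16Ink4a from p19Arf.

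Neither limma nor edgeR called any of the 3 Cip/Kip genes (0 of 3), and only Cdkn1b passed DESeq2 or had an unadjusted limma p under 0.05 (1 of 3). Cdkn1b (ENSMUSG00000003031, chromosome 6, 134920401 to 134925513, plus strand) had 344, 335 and 424 normalized reads in heterozygous A, B and C. In the knockout it had 180, 261 and 150, all below the lowest heterozygous value. The log2 difference was -0.93 ± 0.29 (95% interval -1.58 to -0.27) with a limma adjusted p = 0.0583. For this gene the authors' deposited table holds -0.90 and an adjusted p = 0.0243, and DESeq2 on the recovered reads gave -0.90 (adjusted p = 0.0268), so whether this gene passes depends on the test (adjusted p of 0.0511 to 0.141 in the other alternatives).

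Cdkn1a (ENSMUSG00000023067, chromosome 17, 29090976 to 29100727, plus strand) had 596, 930 and 1079 normalized reads in heterozygous A, B and C and 2083, 945 and 820 in knockout A, B and C. One library, knockout A, stood well above the rest, while knockout B and C lay within the heterozygous range. The log2 difference of 0.48 (95% interval -0.34 to 1.29, adjusted p = 0.385) became 0.06 without knockout A (adjusted p = 0.909). Cdkn1a overlaps an antisense gene, AC167363.2, which held at most 8.996 normalized reads in any library, and the library kit does not mark strand.

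Cdkn1c (ENSMUSG00000037664, chromosome 7, 143458339 to 143461050, minus strand), an imprinted gene, had 488, 567 and 332 normalized reads in heterozygous A, B and C and 510, 295 and 184 in knockout A, B and C. Knockout A lay among the heterozygous libraries, and knockout B and C lay below all 3. The log2 difference was -0.58 (95% interval -1.43 to 0.28, adjusted p = 0.316), and without knockout A it was -0.95 (adjusted p = 0.0951). Among knockout libraries both Cdkn1a and Cdkn1c thus ran from A, the highest, through B to C. The ependymal, endothelial and blood cell marker sums given above had the same order. So did the sums of mural cell (32790, 26974 and 12142) and choroid plexus markers (3008, 1704 and 877). The microglial sum was also highest in A but lower in B than in C (14995, 4171 and 4395), as was the oligodendrocyte sum (95352, 76811 and 95163). The sum for quiescent stem cells and astrocytes ran the other way (728364, 991598 and 1098786). So did those for activated stem and transit-amplifying cells (14389, 16913 and 26884), S phase (13879, 20486 and 33203), mitosis (5013, 5238 and 8546) and striatal and mature neurons (2862, 3214 and 3360). The neuroblast sum was lowest in B and highest in C (16412, 14329 and 18650). The part of any of these cell types in the levels of Cdkn1a and Cdkn1c was not tested.

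**Figure D2:**
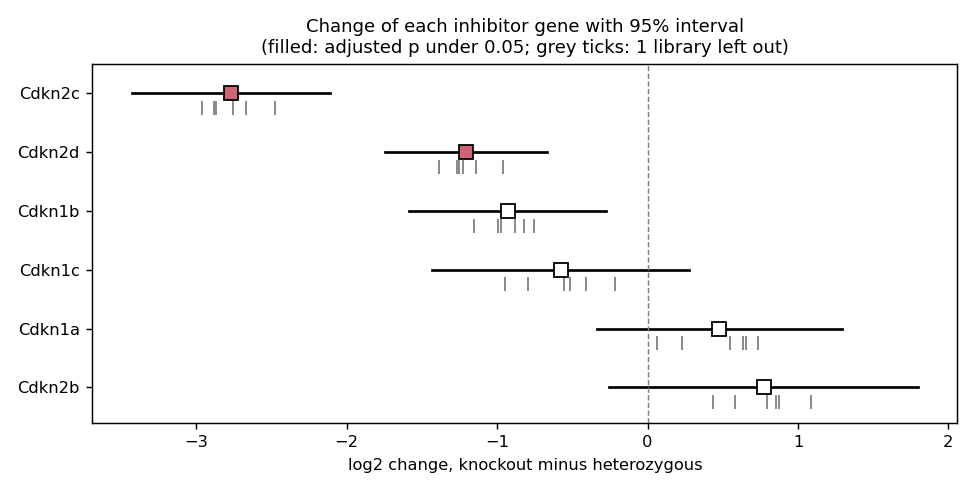
Log2 change between knockout and heterozygous libraries (x axis) for each tested inhibitor gene, with its 95% interval as a line. Filled squares mark the 2 genes with an adjusted p under 0.05, and grey ticks show the change with each library left out in turn, which for Cdkn1a run from 0.06 to 0.73.

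To compare levels between genes, normalized reads were divided by the length of the union of exons. In heterozygous libraries Cdkn2d was the most abundant inhibitor transcript, at 1228 ± 392 normalized reads per kilobase (SD, n = 3). Cdkn2c followed at 476 ± 182, then Cdkn1a at 244 ± 69.6, Cdkn1c at 227 ± 58.8, Cdkn1b at 80.8 ± 10.7, Cdkn2b at 39.8 ± 17.4 and Cdkn2a at 0.563. The ranges of neighbours in this order did not overlap among libraries, other than those of Cdkn1a and Cdkn1c. In knockout libraries the levels were 516 ± 42.3 for Cdkn2d, 361 ± 196 for Cdkn1a, 162 ± 81.3 for Cdkn1c, 66.8 ± 10.1 for Cdkn2c, 65.1 ± 15.7 for Cdkn2b, 43.2 ± 12.6 for Cdkn1b and 0.863 for Cdkn2a. There the ranges of Cdkn2d and Cdkn1a, of Cdkn1a and Cdkn1c, of Cdkn2c and Cdkn2b, and of Cdkn2b and Cdkn1b overlapped. Cdkn2c, next to the top in heterozygous libraries, thus lay within the range of Cdkn2b in all 3 knockout libraries. This order depends on the length used: per kilobase of the longest transcript, Cdkn1a was at 617 ± 335 in the knockout, above Cdkn2d at 571 ± 46.8, with overlapping ranges.

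The summed level of the 7 genes was 2008, 3025 and 1853 normalized reads per kilobase in heterozygous A, B and C and 1541, 1085 and 1019 in knockout A, B and C. Its makeup was read as shares within each library, which do not depend on library scaling. Cdkn2c made up 19.7%, 22.6% and 18.7% of the sum in heterozygous libraries and 3.74%, 6.02% and 7.62% in knockout libraries. Cdkn1a made up 8.36%, 8.65% and 16.4% and then 38.0%, 24.5% and 22.6% in the same order. The share of Cdkn2b was 1.69 ± 0.39% and 5.597 ± 1.998%. For these 3 genes the groups did not overlap (exact permutation p = 0.1 each, two-sided, the smallest that 3 against 3 libraries allow). Shares add up to a fixed total, so a fall of some genes raises the shares of the others. The shares of Cdkn1a, Cdkn2b and the 2 families are thus not separate from the fall of Cdkn2c and Cdkn2d. The levels of Cdkn1a and Cdkn2b themselves overlapped between groups and were not called. Cdkn2d made up 53.1 ± 2.89% and 43.6 ± 8.12%, with overlapping groups (exact permutation p = 0.2), and Cdkn1b 3.74 ± 1.29% and 3.69 ± 1.42% (exact permutation p = 1). INK4 genes together held 76.0%, 79.7% and 69.8% in heterozygous A, B and C and 43.1%, 56.9% and 65.2% in knockout A, B and C, without overlap (exact permutation p = 0.1). Within the INK4 family, the level of Cdkn2c per kilobase was 0.363, 0.410 and 0.376 times that of Cdkn2d in heterozygous libraries and 0.105, 0.139 and 0.147 times in knockout libraries. Within the Cip/Kip family, Cdkn1a stood at 2.22, 3.56 and 3.26 times Cdkn1b and then at 14.8, 4.64 and 7.01 times, again with knockout A highest and without overlap (exact permutation p = 0.1 for both ratios).

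**Figure D3:**
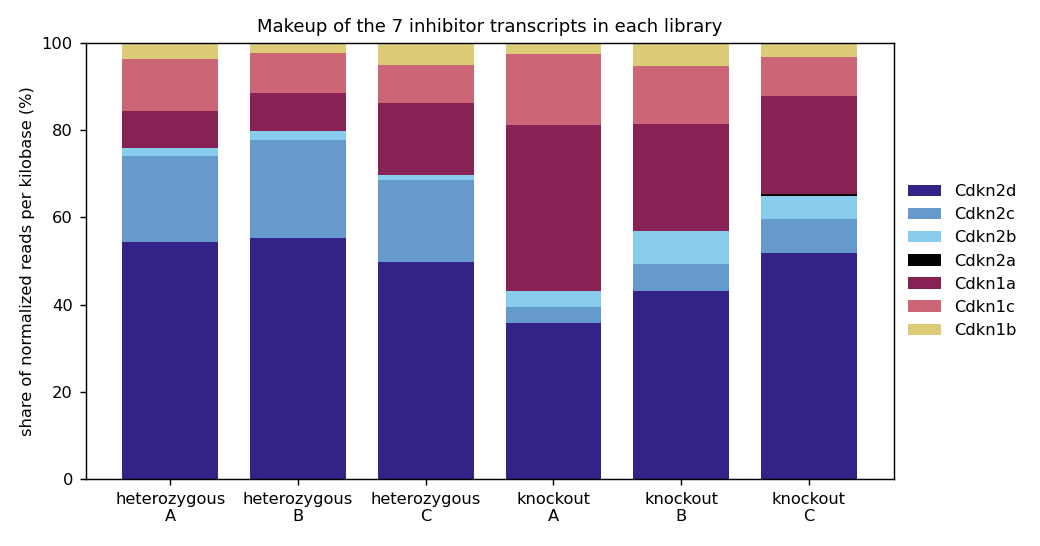
Stacked bars of the share of each inhibitor gene (y axis, percent of the summed normalized reads per kilobase of the 7 genes) in each of the 6 libraries (x axis). The Cdkn2c band is 18.7% to 22.6% in heterozygous and 3.74% to 7.62% in knockout libraries, and the Cdkn1a band is widest in knockout A at 38.0%.

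Most genes for the kinases that the inhibitors act on and for their cyclins were lower. Of the 5 genes for CDK4, CDK6 and the D-type cyclins 3 fell and 1 rose (median log2 change -0.997). Among all tested genes 8.59% fell and 7.23% rose. INK4 proteins bind the 2 kinases of this list and not the cyclins. Cdk4 fell from 16792 ± 4518 to 6712 ± 976 normalized reads (2.46-fold, adjusted p = 0.00851), Cdk6 fell 2.00-fold (adjusted p = 0.0118) and Ccnd2, cyclin D2, fell 3.26-fold (adjusted p = 0.00565). Ccnd1, cyclin D1, was the member that rose (2.26-fold, adjusted p = 0.0249), and Ccnd3, cyclin D3, did not pass (log2 difference 0.54, adjusted p = 0.0955). Of the 8 Cip/Kip target genes 7 fell and 0 rose (median -2.16), among them the mitotic cyclin gene Ccnb2 (6.17-fold), Ccna2, cyclin A2 (5.64-fold), and Ccne2, cyclin E2 (4.28-fold). Ccna1 did not pass (log2 difference -0.97, adjusted p = 0.201). Ccnd1 no longer passed when heterozygous A, heterozygous B or else knockout B was left out, nor did Cdk6 without heterozygous A or without knockout B.

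The INK4 genes were then set against Cdk4 and Cdk6, and the Cip/Kip genes against Cdk1 and Cdk2. The second ratio leaves out Cdk4 and Cdk6, although Cip/Kip proteins bind assembled cyclin-CDK complexes. Cdk4 had more normalized reads (16792 ± 4518 in heterozygous and 6712 ± 976 in knockout libraries) than Cdk1 or Cdk2. A Cip/Kip ratio that includes Cdk4 and Cdk6 was not computed. The ratios of the families were not tested against each other. The summed level of INK4 genes per kilobase was 0.311, 0.355 and 0.317 times that of Cdk4 and Cdk6 in heterozygous A, B and C and 0.363, 0.298 and 0.273 times in knockout A, B and C. The groups overlapped (exact permutation p = 0.6), although within this sum the ratio of Cdkn2c alone to Cdk4 and Cdk6 was 0.0888 ± 0.0104 and 0.0316 ± 0.000226, without overlap (exact permutation p = 0.1). Cip/Kip genes summed to 0.748, 0.578 and 0.979 times Cdk1 and Cdk2 in heterozygous libraries and to 5.601, 3.05 and 1.31 times in knockout A, B and C. These groups did not overlap (exact permutation p = 0.1), with knockout A highest and knockout C nearest to the heterozygous range. Both kinase genes below the line were lower in the knockout, Cdk1 4.66-fold and Cdk2 2.79-fold (limma adjusted p = 0.0027 and 0.0178). Their fall raises this ratio, while limma called 0 of the 3 Cip/Kip genes. Ratios of transcripts say nothing of the amounts of protein or of complexes.

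Cdkn2c was also set against the 12 mitosis markers, whose sum was 28366 to 47002 normalized reads in heterozygous and 5013 to 8546 in knockout libraries. The log2 value of Cdkn2c minus the mean log2 value of the markers was -1.523, -1.001 and -1.218 in heterozygous A, B and C and -1.321, -1.167 and -1.599 in knockout A, B and C. The knockout mean differed by -0.12 and the groups overlapped (exact permutation p = 0.6), so Cdkn2c was lower by about as much as the markers. The same difference was higher in the knockout for each of the other 5 tested inhibitor genes, by 1.45 for Cdkn2d, 1.73 for Cdkn1b, 2.08 for Cdkn1c, 3.13 for Cdkn1a and 3.43 for Cdkn2b, without overlap (exact permutation p = 0.1 each). All 6 differences share the fall of the mitosis markers, and no other marker list was used as a reference. The median log2 change was -2.545 over the mitosis markers, -3.12 over the 16 neuroblast markers and -1.542 over 12 S phase markers. Whether Cdkn2c follows 1 of these lists more than another was not tested.

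**Figure D4:**
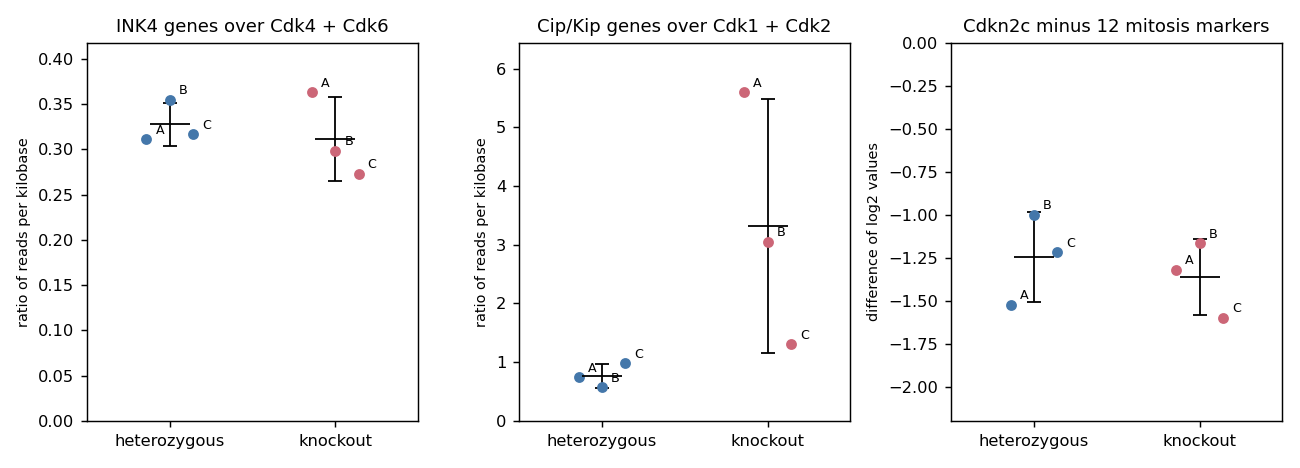
Left and middle, ratio of summed reads per kilobase (y axes, linear from 0) of INK4 genes to Cdk4 plus Cdk6 and of Cip/Kip genes to Cdk1 plus Cdk2. Right, log2 level of Cdkn2c minus the mean of 12 mitosis markers. Points are libraries A to C, bars the mean and whiskers the SD of 3 libraries. The groups overlap in the left and right panels and separate in the middle one, from 0.979 at most to 1.31 at least.

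Over the 6 libraries Cdkn2c and Cdkn2d varied together (Pearson r = 0.97 of log2 values, n = 6, a description in which the genotype difference is shared), while Cdkn1a had r between -0.48 and 0.23 with the other 5 genes. Among genes with a mean of at least 50 normalized reads, the patterns most like Cdkn2c were those of Aldh1b1, the neuronal tubulin gene Tubb3 and Hnrnpm (r of 0.999 each). For Cdkn2d they were Ddx55, Gnl2 and Snrpa1 (r of 0.998 to 0.999), and for Cdkn1b Lin7a and Smcr8 (0.977 and 0.974). For Cdkn1a they were Gm45223, Pex11g and Tmem160 (0.989 to 0.995), for Cdkn1c Glrx, Exoc3l and E130317F20Rik (0.990 to 0.996) and for Cdkn2b Phtf1os, Arpin and AI429214 (0.966 to 0.982).

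The nearest tested gene on each side of each inhibitor was examined as well. For Cdkn1b, Cdkn2c and Cdkn2d the gene downstream lies within a few kilobases on the same strand. Lockd, a long non-coding RNA gene named for its place downstream of Cdkn1b, begins 3579 bases beyond its end. Lockd had 768, 1362 and 779 normalized reads in heterozygous A, B and C and 82.3, 64.1 and 133 in knockout A, B and C. It fell 10.4-fold (log2 change -3.38 ± 0.35, adjusted p = 0.00107), with every knockout library below every heterozygous one. For each normalized read of Cdkn1b there were 2.23, 4.06 and 1.84 of Lockd in heterozygous and 0.457, 0.246 and 0.885 in knockout libraries, so the pair changed unequally. On the other side of Cdkn1b, 2810454H06Rik was at 150 ± 29.9 and 80.2 ± 2.76 (adjusted p = 0.0998).

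**Figure D5:**
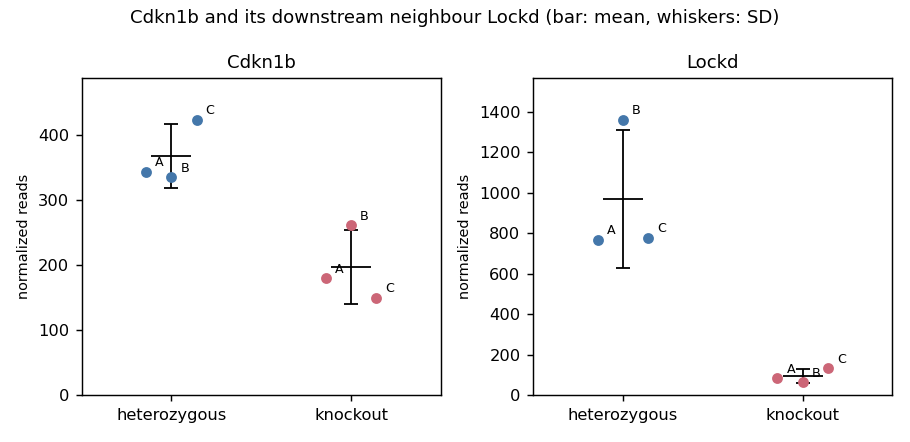
Normalized reads (y axes, linear from 0, on different scales) of Cdkn1b and of Lockd in libraries A to C of each genotype, with the mean and SD of 3 libraries. Lockd lies between 64.1 and 133 in the knockout against 768 to 1362 in heterozygous libraries, a wider gap than that of Cdkn1b.

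Downstream of Cdkn2c, 9630013D21Rik begins 3023 bases beyond its end on the same strand. It had 34, 54 and 34 reads in heterozygous A, B and C and 2, 0 and 0 in knockout A, B and C (limma adjusted p = 0.00867, and 0.0569 without heterozygous B). These were 3.22, 2.88 and 3.65 reads per 100 reads of Cdkn2c in heterozygous libraries and 1.42, 0 and 0 in knockout libraries. Faf1, on its other side, was at 2169 ± 574 and 1314 ± 218 (adjusted p = 0.0784, and 0.0303 with DESeq2). Trp53cor1, the non-coding RNA known as lincRNA-p21 beside Cdkn1a, had 9.0 ± 4.47 and 24.8 ± 3.20 normalized reads (adjusted p = 0.148), and Cpne5, on the far side of Cdkn1a, had 26.5 ± 9.15 and 8.38 ± 1.97 (adjusted p = 0.134). Mtap, the nearest tested gene below Cdkn2a, was at 835 ± 159 and 859 ± 69.3 (adjusted p = 0.874), and Dmrta1, above Cdkn2b, had an adjusted p = 0.711. Kri1, which begins 441 bases beyond the end of Cdkn2d on the same strand, was at 267 ± 8.92 and 361 ± 17.8, higher in each knockout library but not called (log2 difference 0.43, adjusted p = 0.217), and Slc44a2 on the other side had an adjusted p = 0.418. Around Cdkn1c, Kcnq1 and Slc22a18 had adjusted p of 0.418 and 0.692, and of the 6 tested genes of its imprinted domain limma and edgeR called 0 and DESeq2 called 1, Nap1l4, also the only 1 with an unadjusted limma p under 0.05 (log2 difference -0.80, limma adjusted p = 0.0548). With limma Nap1l4 passed when the mean had to be at least 50 (adjusted p = 0.0439), without knockout C (0.0224) and, at the threshold, without heterozygous C. Without knockout A limma called 1 gene of the domain lower, which was not Nap1l4.

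Genes that set the amount of inhibitor protein were lower in part. Of 15 genes of inhibitor turnover 5 fell and 0 rose (median -0.37), against 8.59% lower and 7.23% higher among all tested genes. Skp2, the substrate receptor that marks p27 for degradation, fell from 1504 ± 332 to 514 ± 162 normalized reads (2.98-fold, adjusted p = 0.0101). Its cofactor Cks1b fell 2.52-fold and Cdc20, an activator of the anaphase-promoting complex, 6.60-fold. Leaving out heterozygous A or heterozygous B lowered the count to 2 and ended the call of Skp2, and leaving out knockout B lowered it to 3.

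Among regulators of inhibitor transcription, of 19 tested repressors 4 fell and 0 rose (median -0.26), against 8.59% lower and 7.23% higher among all tested genes. All 4 were Polycomb genes. Ezh2, the histone H3 methyltransferase, fell 3.29-fold (adjusted p = 0.00232) and Bmi1, a known repressor of Cdkn2a, 3.15-fold (adjusted p = 0.00423). Cbx2 fell 3.30-fold (adjusted p = 0.0203), with Rnf2 the fourth (1.66-fold). Rnf2 failed without any 1 library other than knockout C, with no filter and with the replicate block. With a pseudocount of 5, a mean of at least 50, DESeq2, the replicate block or without knockout C, 1 repressor rose. Without heterozygous C 2 repressors rose and 3 fell. Of 14 activators 2 rose and 0 fell (median -0.01), a share near that of all genes (15.8% called), Foxo1 by 1.80-fold (adjusted p = 0.035) and Smad3 by 2.09-fold (adjusted p = 0.0442). With DESeq2 or a mean of at least 50, 2 activators rose and 1 fell. In the ARF and p53 list 1 of 7 genes fell, also a share near that of all genes (15.8% called). This was Trp53, by 1.72-fold (adjusted p = 0.0362). Leaving out heterozygous A, heterozygous B or else knockout B ended the calls of Foxo1, Smad3 and Trp53 (0 activators then passed), and leaving out either of the first 2 ended that of Cbx2 and left 2 repressors. Smad3 and Trp53 also failed without knockout A (1 activator then rose and 2 fell) and with no filter on low values (adjusted p of 0.0574 and 0.0502), Smad3 without heterozygous C, with edgeR (adjusted p = 0.0546) or with the replicate block (adjusted p = 0.069), Trp53 with that block (adjusted p = 0.0764), and Foxo1 without knockout C.

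Further along the pathway, limma and edgeR called 0 of the 3 pocket protein genes. Rbl2, which encodes p130, had 1403 ± 355 and 2420 ± 650 normalized reads (log2 difference 0.78 ± 0.27, limma adjusted p = 0.0755) and was the 1 gene called by DESeq2 and the 1 with an unadjusted limma p under 0.05. Without knockout A it also passed limma (1.01, adjusted p = 0.0358), and without knockout C 1 gene of the list was called lower and 0 higher. Of 8 other restraints on CDK activity 2 fell and 0 rose, where 8.59% of all tested genes fell and 7.23% rose. With so few genes, this count describes the list only. With DESeq2 5 fell and 1 rose, and with a mean of at least 50 3 fell and 1 rose. With limma 3 fell with a pseudocount of 5 or TMM scaling, and 4 without knockout C. Cdkn3, a CDK-directed phosphatase outside both families despite its name, had 236, 403 and 166 normalized reads in heterozygous A, B and C and 28.5, 35.6 and 25.3 in knockout A, B and C, and fell 8.25-fold (adjusted p = 0.00306). Pkmyt1, an inhibitory kinase of CDK1, fell 3.81-fold. Of 6 genes of the CDK-activating kinase and CDC25 phosphatases 2 fell, Cdc25c (5.38-fold) and Cdc25a (3.08-fold). Of 4 partners of Cip/Kip proteins outside the CDK complex 2 fell. These were Stmn1 (7.01-fold), a microtubule regulator that binds p27, and Pcna (2.13-fold), which binds p21. Among all tested genes 8.59% fell, and lists this short describe only their own genes. Cdc25a and Pcna no longer passed without heterozygous B or without knockout B, and Cdc25a also failed without heterozygous A.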

How the data were processed

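RNA-seq libraries of sorted subventricular zone cells were compared between 2 genotypes, 3 pooled-mouse libraries each. Per the submitters' processing notes the tools were HISAT2, featureCounts, Subread and DESeq2 on GRCm38, with no versions given. The deposited values are a signal, read counts divided by 1 size factor per library, and all 6 columns were whole multiples of 1 step (100% of values within 0.001 reads). In heterozygous A and C that step lies so close to 1 that the check of recovered reads is weaker there. Also deposited were the authors' log2 fold changes with standard errors, 2 score columns (a statistic and a weight), and the authors' p-value and its weighted adjustment, which are used only where named.

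Rows with a mean of at least 10 (18227) were tested with limma 3.58.1 in R 4.3.3 on log2(value + 1) with a mean-variance trend, two-sided, with Benjamini-Hochberg adjustment across all tested genes. Fold changes are on that scale, which understates changes of low genes. Alternatives used edgeR 4.0.16 and DESeq2 1.42.0 on recovered reads, other pseudocounts, filters and scalings, a block by replicate letter, and fits with 1 library left out; edgeR called 2885 genes against 2883 with limma. Single ratios used exact permutation over libraries, and lengths came from GENCODE M21 on GRCm38. The methods were tested on simulated data with far fewer changed genes than were called here. The simulation held no shift in cell makeup, so it does not cover such shifts. The labels letter the libraries of a genotype without saying more of their mice, so p-values measure only the spread between these pools. Members, gene lists and rules were chosen with earlier results of these data known. Named genes were the members, E2f1 and E2f3, up to 3 called genes per pathway list by p (or the lowest p where none was called), the 3 most similar genes per member and the nearest tested neighbours. One gene under this rule is not reported here. Ccnd1, Ccnd3, Ccna1 and Rnf2 were added after their values were seen, as were the changes of Cdk1 and Cdk2. Counting settings are not given in the sources used here, and reads of overlapping genes cannot be told apart.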

Additional observations from a re-analysis of the deposited data

How the results depend on the processing

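The calls of Cdkn2c and Cdkn2d and the absence of a call for Cdkn1a, Cdkn1c and Cdkn2b held under every pseudocount, filter, scaling and tool tried, and with 1 library left out the number of inhibitor genes called was 1 to 2, the lower value without knockout B. Cdkn2d ranged from -1.39 to -0.96 on the log2 scale with 1 library left out. Cdkn1b passed with DESeq2 (-0.90, adjusted p = 0.0268) and with no other alternative (adjusted p of 0.0511 to 0.141 in those). All genes called numbered 4476 with DESeq2 and 636 to 4021 with 1 library left out, against 2883. More were lower than higher (1565 and 1318). This turned with upper-quartile scaling (1385 and 1526) and with DESeq2 (2202 and 2274), and widened without knockout B (590 and 111). The cause of these differences was not tested. Mtap and Dmrta1, not called, changed sign with 1 library left out (ranges -0.11 to 0.16 and -0.75 to 1.80). With the replicate letter as a replicate block, Cdkn2c was at -2.77 (adjusted p = 0.00106), 2 inhibitor genes and 2310 genes in all were called, and the calls of Trp53, Smad3 and Rnf2 were lost. Over all tested genes, same-lettered libraries did not deviate together (r of -0.07, 0.02 and -0.10 for A, B and C). Differently lettered pairs had r of -0.09 to 0.16. The labels do not say what the letters share, and a batch that affects few genes was not tested.

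Lengths matter for levels. With the longest transcript in place of the union of exons, Cdkn1a made up 16.3% and 38.2% of the family in heterozygous and knockout libraries, the knockout sum was 1543 normalized reads per kilobase, INK4 genes were at 0.228 and 0.216 times Cdk4 and Cdk6, Cdkn2c alone at 0.0612 and 0.0218 times, and Cdkn1a at 5.15 and 15.1 times Cdkn1b. Cdkn1a then overlapped Cdkn2c in heterozygous libraries. It was also the highest in the knockout mean, where Cip/Kip genes then held 51.95% of the family. No direction between the genotypes changed. Depth limits Cdkn2a, with at most 3 reads in any library.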
